A study of Mus musculus with 56 samples.

Results

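Retinoid metabolism in the liver was followed through 8 genes out of the 21935 genes of the deposited count table. These were the cytochrome P450 genes Cyp26a1 and Cyp26b1, the nuclear receptor gene Rarb, the plasma carrier gene Rbp4, and the enzyme genes Dhrs3, Retsat, Aldh1a1 and Bco1. They were picked by gene symbol, after their levels in the 7 groups of mice had been seen. Their levels and differences are therefore given as a description, without p-values. All 8 had reads in each of the 56 mice and passed the filter on low counts, which left 14105 genes.

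Liver RNA came from male C57BL/6J mice, 8 in each group, after 8 weeks of daily subcutaneous dosing. The chow vehicle group ate standard chow. The other 6 groups were diet-induced obese mice with biopsy-verified metabolic dysfunction-associated steatohepatitis (DIO-MASH), fed the AMLN diet that is rich in trans-fat, fructose and cholesterol. They received vehicle, low-dose zalfermin (0.05 mg/kg), high-dose zalfermin (0.2 mg/kg), low-dose semaglutide (3 µg/kg), high-dose semaglutide (120 µg/kg), or both low doses as separate injections (zalfermin-semaglutide combination). Zalfermin mimics the hormone FGF21 with a longer action. Semaglutide activates the GLP-1 receptor. The deposited design text names high doses for the combination where the paper's methods give low doses, and the methods were followed. The model is a diet model in 1 inbred strain and 1 sex, and mice entered it only with steatosis and fibrosis at biopsy.

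Retinoids are vitamin A and its products. The liver holds most of the body's vitamin A as retinyl esters in stellate cells, while hepatocytes secrete retinol bound to Rbp4. Retinol is oxidised to retinal and then to retinoic acid, which binds retinoic acid receptors on DNA, and the Cyp26 enzymes degrade it. Cyp26a1 and Rarb are textbook genes that retinoic acid switches on.

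Libraries held between 5228187 and 20885786 reads on genes, with a median of 12206788. Hepatocyte markers summed to between 69245 and 233614 CPM (reads of a gene scaled to a common library total) in every library, and adipocyte and exocrine pancreas markers to at most 0.832 and 1.11 CPM. Chow mouse 8 stood apart. Its correlation with the mean of its group was 0.951, against a median of 0.988 over all mice, and it carried intestinal transcripts, with 10266 reads of Alpi where no other mouse had more than 1. Low-dose semaglutide mouse 6 had the next lowest correlation, at 0.969. Differences between chow and DIO-MASH vehicle without chow mouse 8, and those of Rbp4, Rarb and Dhrs3 with low-dose semaglutide without mouse 6, are given with each gene.

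Cyp26a1 had the widest range of the 8 genes. Its level in DIO-MASH vehicle mice was far below that in chow mice, and among the DIO-MASH groups its mean and median were highest with high-dose zalfermin. Rbp4, Retsat and Dhrs3 were also lower in DIO-MASH vehicle mice than in chow mice and higher in the high-dose zalfermin and combination groups. Rarb ran the other way between the diets, with lower values in chow mice. Cyp26b1, Aldh1a1 and Bco1 differed little between groups relative to their spread. In bulk liver RNA, fewer cells of a type and less RNA per cell cannot be told apart.

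Cyp26a1 encodes the main hydroxylase that clears retinoic acid in liver. In chow mice its lowest, median and highest levels were 6.03, 18.1 and 45.2 CPM. In DIO-MASH vehicle mice they were 1.52, 2.48 and 9.41 CPM. Of the chow mice, 7 of 8 lay above every DIO-MASH vehicle mouse, so the groups overlapped by 1 chow mouse. With high-dose zalfermin the levels were 9.92, 20.4 and 53.8 CPM, and no mouse of that group overlapped DIO-MASH vehicle. With the combination they were 6.67, 11.2 and 62.5 CPM, and 5 of 8 mice lay above every vehicle mouse. High-dose semaglutide gave 2.25, 8.67 and 14.7 CPM, with 3 of 8 mice above every vehicle mouse. Low-dose zalfermin gave 3.24, 5.76 and 72.9 CPM, with 2 of 8 above. Low-dose semaglutide gave 3.52, 4.90 and 9.21 CPM, and none of these mice passed the highest vehicle mouse.

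**Figure D1:**
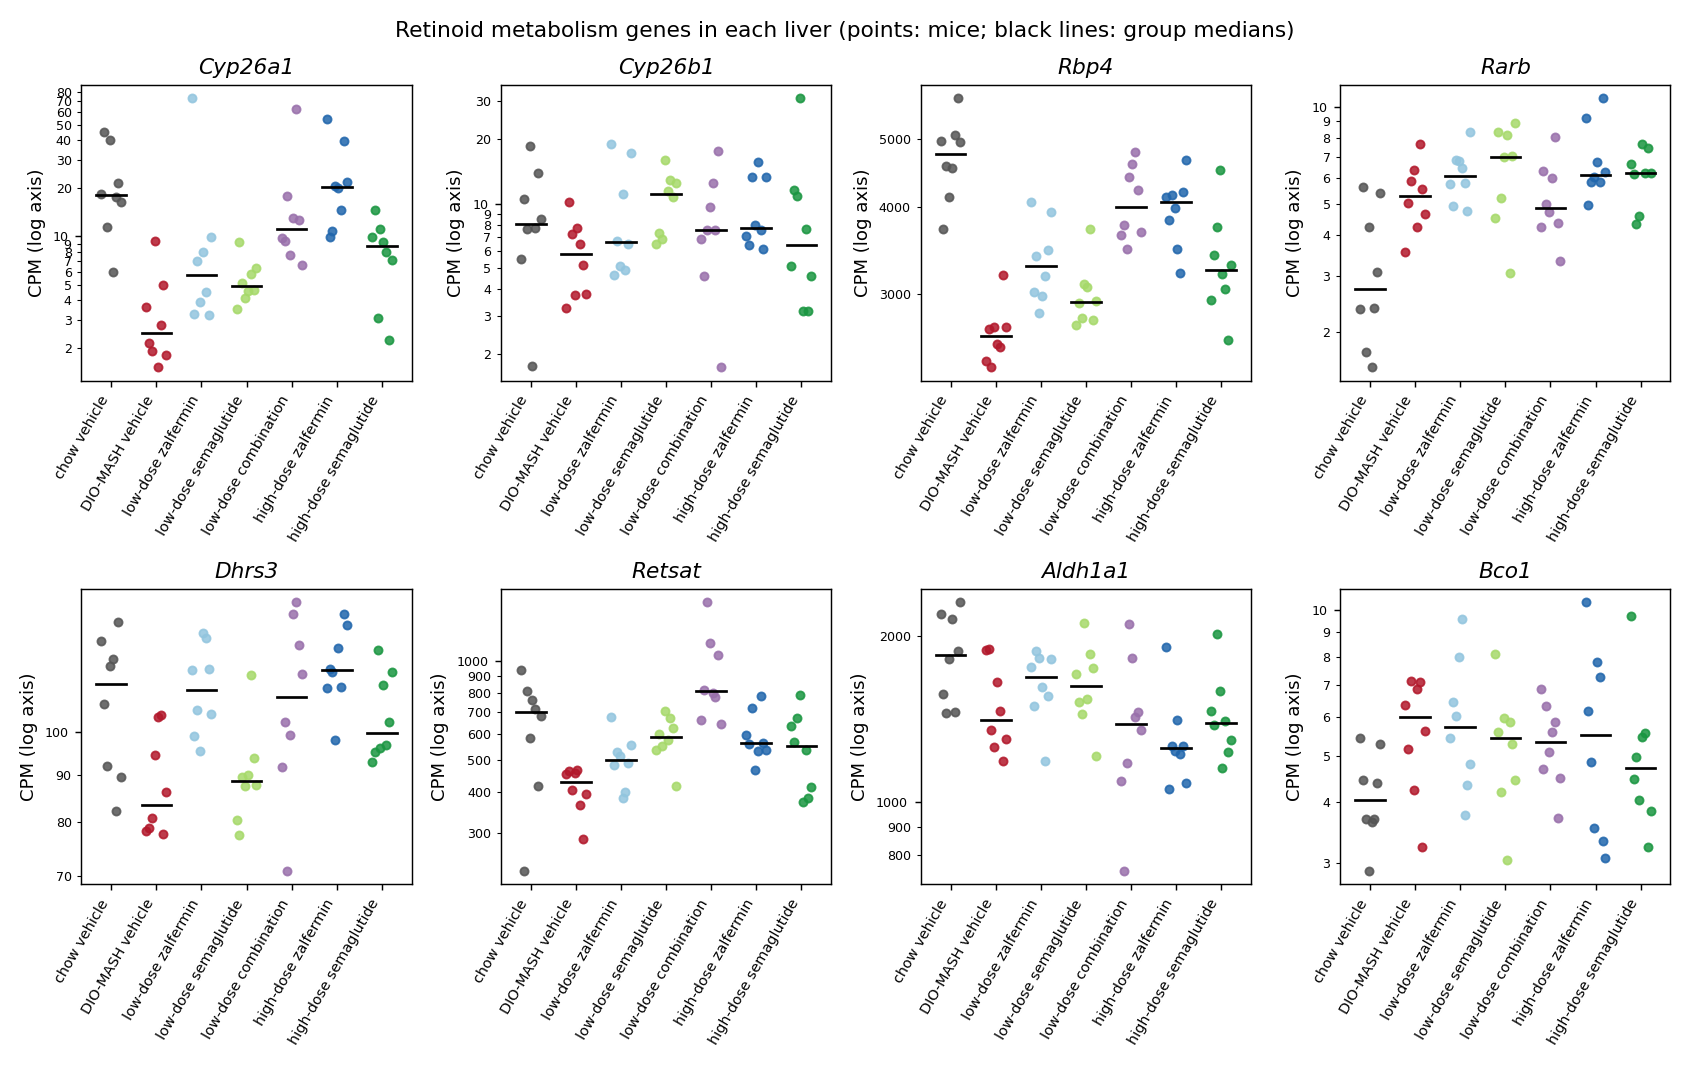
Levels of the 8 genes in each of the 56 mice, 1 panel per gene, in CPM on a log axis, by group (8 mice each); each point is a mouse and the black lines are group medians. The high-dose zalfermin mice lie between 9.92 and 53.8 CPM for Cyp26a1, all above the 8 DIO-MASH vehicle mice.

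Relative to DIO-MASH vehicle, the log2 fold change of Cyp26a1 (edgeR, ± SE, n = 8 mice per group) was 2.69 ± 0.55 in chow mice, a 6.47-fold higher level, and 2.75 ± 0.56 without chow mouse 8. It was 2.78 ± 0.55 with high-dose zalfermin, a 6.86-fold higher level, and 2.31 ± 0.54 with the combination. With low-dose zalfermin it was 2.04 ± 0.54, with high-dose semaglutide 1.25 ± 0.54 and with low-dose semaglutide 0.66 ± 0.55. Mean levels placed high-dose zalfermin first (23.9 ± 15.2 CPM, SD), then chow (22.1 ± 13.6), the combination (17.4 ± 18.6), low-dose zalfermin (14.1 ± 23.9), high-dose semaglutide (8.19 ± 4.09), low-dose semaglutide (5.44 ± 1.78) and DIO-MASH vehicle (3.53 ± 2.63). Each pair of neighbours in this order differed by less than the larger SD of the pair. All 5 treated groups and the chow group share the same 8 DIO-MASH vehicle mice as their reference, of which mouse 4 was the highest. Without it, the log2 fold change was 3.04 for chow, 3.09 for high-dose zalfermin and 2.63 for the combination.

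Single mice carried much of the mean in both groups that received low-dose zalfermin. Low-dose zalfermin mouse 1 had 72.9 CPM of Cyp26a1 where the median of the other mice was 4.48 CPM. Without it the group mean was 5.70 ± 2.64 CPM (SD, n = 7), and the log2 fold change against vehicle was 0.71 ± 0.46 in place of 2.04. The same mouse was also the highest of its group for Cyp26b1 (19.01 CPM), Rbp4 (4062 CPM) and Retsat (677 CPM), but not for Rarb (5.77 CPM). Combination mouse 6 had 62.5 CPM of Cyp26a1 where the median of the others was 9.78 CPM, and without it the log2 fold change was 1.67 ± 0.52. It was also the highest of its group for Rbp4 (4792 CPM), Rarb (8.08 CPM) and Dhrs3 (138 CPM), but not for Cyp26b1 (7.55 CPM).

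The dose and combination contrasts of Cyp26a1 turned on these mice. High-dose against low-dose zalfermin gave a log2 fold change of 0.73 ± 0.49 with all mice and 2.07 ± 0.44 without low-dose zalfermin mouse 1. The combination against low-dose zalfermin gave 0.27 ± 0.49 with all mice. It gave 1.60 ± 0.44 without low-dose zalfermin mouse 1, -0.37 ± 0.48 without combination mouse 6, and 0.96 ± 0.39 without both. The low-dose interaction compares the combination with the sum of both low-dose effects on the log2 scale. For Cyp26a1 it was -0.39 ± 0.74 with all mice, 0.95 ± 0.62 without low-dose zalfermin mouse 1, -1.03 ± 0.70 without combination mouse 6 and 0.31 ± 0.55 without both. Its sign changed with which of these mice was left out.

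The labels number the mice and do not say what the numbers stand for. Here the numbers were cut at their widest gaps into 4 series, A to D. Within series A, B and C, the difference in mean log2 CPM of Cyp26a1 between high-dose zalfermin and DIO-MASH vehicle was 2.61, 2.51 and 2.92. Between chow and vehicle it was 3.28, 1.85 and 2.08, and between the combination and vehicle 1.85, 3.15 and 1.26. These differences kept one direction, on 1 to 4 mice per group and series. Cyp26a1 with high-dose semaglutide was less even, at 1.53, 1.45 and 0.10. In chow mice Rbp4 gave 0.76, 0.86 and 0.69, but Retsat 0.02, 0.88 and 1.07, and Dhrs3 0.56, -0.01 and 0.23. Series D held only 2 chow mice and 1 vehicle mouse.

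Cyp26a1 and Rarb are known as direct targets of retinoic acid receptors, and the sequences before their transcription starts are shown. Whether other members are such targets was not examined. Receptor pairs bind repeats of a short half-site. Direct repeats were searched on both strands of the 250 bases before each RefSeq start, taking AGGTCA or AGTTCA or GGGTCA or GGTTCA as the half-site, with a spacer of 1, 2 or 5 bases (DR1, DR2, DR5). Each line gives 240 bases read 5′ to 3′ on the gene's strand, from base 250 to base 11 before the start, from RefSeq on build GRCm38.p6, and capitals mark the half-sites of the DR5 match.
Cyp26a1 (chr19:37697558-37697797, plus strand): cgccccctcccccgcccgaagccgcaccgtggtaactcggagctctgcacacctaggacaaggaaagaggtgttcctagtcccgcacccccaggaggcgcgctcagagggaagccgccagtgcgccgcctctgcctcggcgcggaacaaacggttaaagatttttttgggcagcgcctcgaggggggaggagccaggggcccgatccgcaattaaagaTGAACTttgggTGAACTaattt
Rarb (chr14:16575487-16575726, minus strand): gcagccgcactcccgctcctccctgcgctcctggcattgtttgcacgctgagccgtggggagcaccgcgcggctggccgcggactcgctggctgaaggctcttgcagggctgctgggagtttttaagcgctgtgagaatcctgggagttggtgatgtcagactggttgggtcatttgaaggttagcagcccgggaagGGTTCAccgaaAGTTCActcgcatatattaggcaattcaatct

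In Cyp26a1 the repeat lay 32 to 16 bases before the start and consists of AGTTCA, 5 spacer bases and AGTTCA on the opposite strand. In Rarb it lay 53 to 37 bases before the start and consists of GGTTCA, 5 spacer bases and AGTTCA on the gene's strand. The stretches had GC contents of 62.1% and 58.8%. All 8 genes had an entry, with 12 start windows among them. DR5 was found for Cyp26a1 and Rarb, DR2 for none, and DR1 for Bco1, at 56 to 44 bases before its start. Over the whole table, DR5 was found in 29 of 32851 windows (0.0883%), belonging to 28 of 27025 genes (0.104%). DR2 was found in 0.174% of windows and DR1 in 0.164%. Cyp26a1 and Rarb were shown because they are known targets of these receptors, so their matches are no test against the share over all genes. A match states which letters are present, and binding was not measured.

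Both genes with a DR5 match had unlike levels across the groups. The searched Rarb start lies inside the gene as annotated in GENCODE, and the counts are of the whole gene. Reads from that start were not told apart from those of other starts. Rarb encodes retinoic acid receptor beta. Its lowest, median and highest levels were 1.56, 2.73 and 5.64 CPM in chow mice and 3.54, 5.30 and 7.68 CPM in DIO-MASH vehicle mice. Of the chow mice, 5 of 8 lay below every vehicle mouse. The log2 fold change was -0.67 ± 0.21 in chow mice, and -0.79 ± 0.22 without chow mouse 8. In the treated groups it ran from -0.03 ± 0.21 with the combination to 0.37 ± 0.21 with high-dose zalfermin. With low-dose semaglutide it was 0.29 ± 0.20, and 0.39 ± 0.20 without mouse 6. Across the 56 mice, with each group's mean removed, Cyp26a1 and Rarb had a Pearson correlation of 0.45, and of 0.09 with the group means left in.

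Rarb reads carry a limit. The gene (chr14:16430839-16819156, minus strand, GENCODE M21 on GRCm38) shares 1793 exon bases with Top2b on the other strand. Whether the counting used strand is not given in the sources used here, and without it reads of both genes cannot be told apart. Top2b, a DNA topoisomerase gene, had 46.8 ± 6.74 CPM in chow mice and 41.6 ± 3.76 CPM in vehicle mice (SD, n = 8 each). Its log2 fold change in chow mice was 0.17 ± 0.09 (edgeR, adjusted p = 0.112), opposite in sign to that of Rarb. In the treated groups Top2b ran from 0.12 ± 0.09 with low-dose semaglutide (adjusted p = 0.735) to 0.31 ± 0.09 with high-dose zalfermin (adjusted p = 0.0143), positive in all 5 groups, and Rarb was positive in 4 of these and likewise highest with high-dose zalfermin. The within-group correlation of both genes was -0.11.

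Cyp26b1 encodes the second retinoic acid hydroxylase. It ranged from 3.27 over 5.83 to 10.2 CPM (lowest, median, highest) in DIO-MASH vehicle mice, and from 1.77 over 8.09 to 18.6 CPM in chow mice. The highest value of any mouse, 30.8 CPM, was in the high-dose semaglutide group. Groups overlapped throughout, and low-dose semaglutide stood furthest from vehicle, with 5 of 8 mice above every vehicle mouse. Log2 fold changes against vehicle lay between 0.51 ± 0.39 (combination) and 0.82 ± 0.38 (low-dose semaglutide). Several rested on single mice. With high-dose semaglutide the value was 0.70 with all mice and 0.14 without mouse 4, with the combination 0.29 without mouse 7, with low-dose zalfermin 0.65 and 0.41 without mouse 1, and in chow mice 0.64 and 0.42 without mouse 4. In chow mice it was 0.66 ± 0.40 without mouse 8. High-dose against low-dose zalfermin gave 0.06 ± 0.38.

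**Figure D2:**
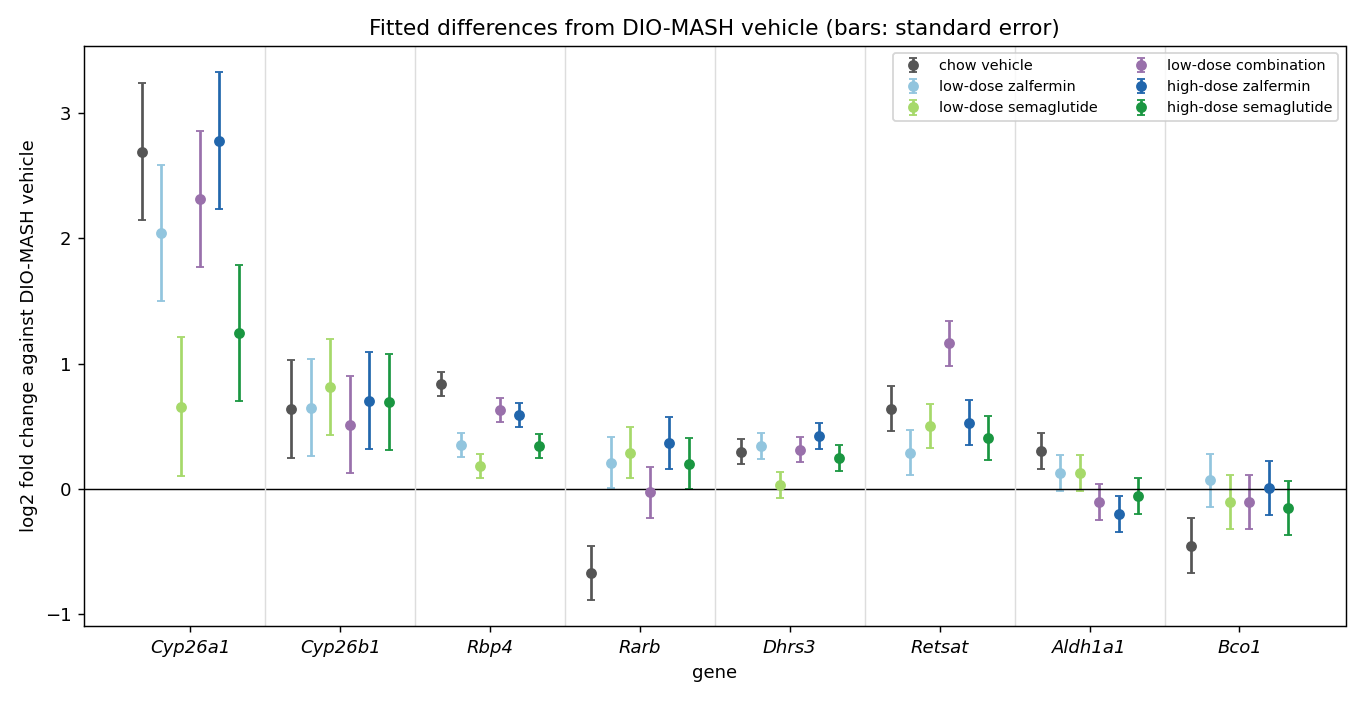
Fitted log2 fold changes of the 8 genes against DIO-MASH vehicle in the chow group and the 5 treated groups; points are edgeR estimates and bars are ± 1 SE (8 mice per group). Cyp26a1 reaches 2.78 with high-dose zalfermin and Retsat 1.16 with the combination, while Aldh1a1 and Bco1 stay between -0.45 and 0.30.

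Among the genes that supply retinol, Rbp4 was the most abundant and the most even. It encodes retinol binding protein 4, which carries retinol in plasma. Its lowest, median and highest levels were 3719, 4769 and 5728 CPM in chow mice and 2355, 2609 and 3197 CPM in DIO-MASH vehicle mice, with no overlap. High-dose zalfermin gave 3211, 4062 and 4667 CPM, and the combination 3483, 4004 and 4792 CPM. All mice of both groups lay above every vehicle mouse. High-dose semaglutide gave 2576, 3253 and 4521 CPM with 5 of 8 mice above, low-dose zalfermin 2819, 3293 and 4062 CPM with 4 of 8, and low-dose semaglutide 2704, 2922 and 3718 CPM with 1 of 8. Log2 fold changes were 0.84 ± 0.10 in chow mice, 0.63 ± 0.10 with the combination and 0.59 ± 0.10 with high-dose zalfermin. They were 0.35 ± 0.10 with low-dose zalfermin, 0.34 ± 0.10 with high-dose semaglutide and 0.19 ± 0.09 with low-dose semaglutide. Without chow mouse 8 the first was 0.83 ± 0.10, and without low-dose semaglutide mouse 6 the last was 0.13 ± 0.10.

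Retsat encodes retinol saturase, which converts retinol to dihydroretinol. It was higher with the combination than with either low dose alone. DIO-MASH vehicle mice had 289, 430 and 467 CPM (lowest, median, highest) and combination mice 643, 809 and 1509 CPM, with no overlap. Low-dose zalfermin gave 385, 501 and 677 CPM, and low-dose semaglutide 418, 587 and 705 CPM. Of the combination mice, 6 of 8 lay above every mouse of either low-dose group. The log2 fold change of the combination was 1.16 ± 0.18 against vehicle, 0.87 ± 0.18 against low-dose zalfermin and 0.66 ± 0.18 against low-dose semaglutide, and the low-dose interaction was 0.37 ± 0.25.

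With high-dose zalfermin Retsat ran from 467 over 562 to 784 CPM (log2 fold change 0.53 ± 0.18), and all 8 mice lay above the vehicle mice, the lowest only just. Chow mice spread more widely, from 230 over 699 to 940 CPM (0.64 ± 0.18, and 0.63 ± 0.18 without mouse 8), with 6 of 8 mice above every vehicle mouse and chow mouse 2, at 230 CPM, below every one. Part of its exon sequence, 650 bases, overlaps the gene model Gm45053 on the other strand.

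Dhrs3 encodes a reductase that turns retinal back into retinol. It had 77.6, 83.5 and 104 CPM (lowest, median, highest) in DIO-MASH vehicle mice and 82.2, 113 and 131 CPM in chow mice. With high-dose zalfermin it had 98.1, 117 and 134 CPM, and 7 of 8 mice lay above every vehicle mouse. Low-dose zalfermin was close to it, with 95.6, 111 and 128 CPM and 6 of 8 mice above. The combination overlapped vehicle more, at 70.9, 109 and 138 CPM with 4 of 8 above and 1 below. Log2 fold changes were 0.42 ± 0.10 with high-dose zalfermin, 0.34 ± 0.10 with low-dose zalfermin, 0.31 ± 0.10 with the combination, 0.30 ± 0.10 in chow mice, 0.25 ± 0.10 with high-dose semaglutide and 0.03 ± 0.10 with low-dose semaglutide. In chow mice it was 0.33 ± 0.10 without mouse 8, and with low-dose semaglutide -0.02 ± 0.10 without mouse 6.

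Aldh1a1 encodes a retinal dehydrogenase that makes retinoic acid. Group medians lay between 1248 CPM (high-dose zalfermin) and 1845 CPM (chow), around 1404 CPM in DIO-MASH vehicle mice, and all groups overlapped. Log2 fold changes ran from -0.20 ± 0.14 with high-dose zalfermin to 0.30 ± 0.14 in chow mice, or 0.25 ± 0.15 without chow mouse 8. Reads of Aldh1a1 and of its close paralog Aldh1a7 could have been split between them. Bco1 encodes the oxygenase that cleaves beta-carotene to retinal. Its group means lay between 4.18 CPM (chow) and 6.06 CPM (low-dose zalfermin), with 5.72 CPM in vehicle mice. Log2 fold changes were -0.45 ± 0.22 in chow mice (-0.51 ± 0.23 without mouse 8) and between -0.15 ± 0.21 and 0.07 ± 0.21 in the treated groups.

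Divided by merged exon length, the mean level over all mice was 2668 CPM per kb for Rbp4, 311 for Aldh1a1, 170 for Retsat and 35.6 for Dhrs3. The other 4 were scarce, at 6.82 CPM per kb for Cyp26a1, 2.11 for Bco1, 1.68 for Cyp26b1 and 1.08 for Rarb. In DIO-MASH vehicle mice, Cyp26a1 was at 1.78 CPM per kb. Cyp26a1 (chr19:37697798-37701536, plus strand) and Rbp4 (chr19:38116629-38125281, minus strand) lie on the same chromosome, as does Aldh1a1 (chr19:20492715-20643465, plus strand).

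Spread between mice of one group differed widely among the members. The within-group SD of log2 CPM was 0.96 for Cyp26a1 and 0.81 for Cyp26b1, against a median of 0.31 over all 14105 genes. Among the 4209 genes whose mean level lay within 2-fold of that of Cyp26a1, its spread was at the 99.1st percentile, and that of Cyp26b1 at the 97.4th percentile of its like. Rbp4 had an SD of 0.18 and Dhrs3 of 0.21. Cyp26a1 rested on 18 to 1074 reads per mouse and Rarb on 8 to 148.

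Within groups, the members did not vary as a block. With group means removed, the largest Pearson correlations over the 56 mice were 0.45 for both Cyp26a1 with Rarb and Cyp26b1 with Rbp4, followed by 0.39 for Retsat with Aldh1a1 and 0.37 for Cyp26a1 with Cyp26b1. The lowest was -0.40, for Rarb with Retsat. Cyp26a1 and Retsat, which both differed between the combination and vehicle, had a within-group correlation of -0.05. These values are descriptions, and all genes of a mouse share its library and depth.

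**Figure D3:**
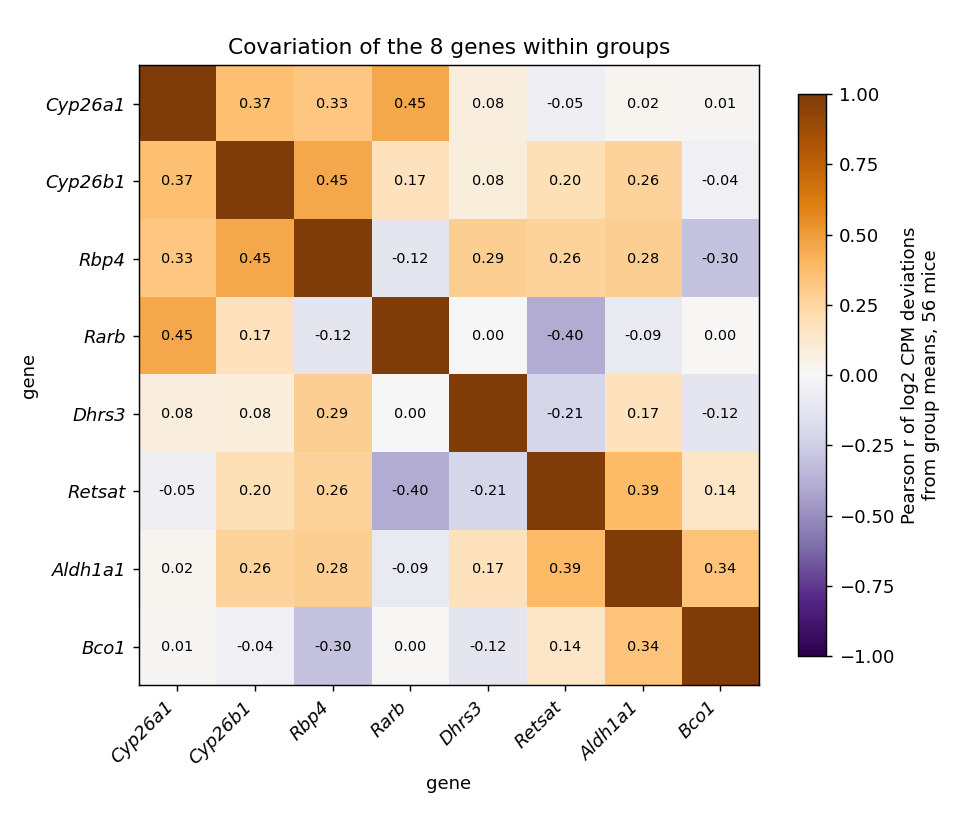
Pearson correlations between the 8 genes over 56 mice, computed on log2 CPM after each group's mean was removed; colour and number give r. The highest values are 0.45 (Cyp26a1 with Rarb, Cyp26b1 with Rbp4) and the lowest is -0.40 (Rarb with Retsat).

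The 5 genes whose log2 CPM over the 56 mice was most like that of Cyp26a1, among 11874 genes with a mean of 1 CPM or more, were F7, Slc10a1, Tmem256, Sfxn2 and Hpd. F7 encodes coagulation factor VII, Slc10a1 the bile acid transporter of hepatocytes, and Hpd an enzyme of tyrosine breakdown. Their Pearson correlations were 0.75, 0.75, 0.73, 0.73 and 0.73. Mean Slc10a1 was 957 CPM in chow mice, 311 in DIO-MASH vehicle mice, 745 with high-dose zalfermin and 693 with the combination. With group means removed the correlations were 0.43, 0.42, 0.45, 0.44 and 0.35, and none of the 5 was then among the 5 highest.

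In the fit over all genes (edgeR quasi-likelihood test, Benjamini-Hochberg adjusted p under 0.05), 5 of the 8 members passed the threshold between chow and DIO-MASH vehicle, where 55.4% of all genes did. Of these, Cyp26a1, Rbp4, Retsat and Dhrs3 were higher in chow mice (26.5% of all genes) and Rarb was lower (28.9%). The same 5 passed without chow mouse 8. Aldh1a1 also passed in 6 and Bco1 in 1 of 56 fits that each left out 1 mouse. With the combination, the members that passed were Cyp26a1, Rbp4, Retsat and Dhrs3, all higher, where 20.9% of all genes passed, 10% higher and 10.9% lower. Of these 56 fits, Dhrs3 no longer passed in 2, those without combination mouse 5 or 6. With high-dose zalfermin the same 4 members passed and were higher, where 17.2% of all genes passed, 8.54% higher and 8.68% lower. Retsat no longer passed in 5 of the 56 fits, those without vehicle mouse 6, 7 or 8 or high-dose zalfermin mouse 3 or 6. With high-dose semaglutide 1 member, Rbp4, passed, where 2.43% of all genes did, and it no longer passed in 10 of the 56 fits, which left out 7 of the vehicle mice or high-dose semaglutide mouse 2, 3 or 4.

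With low-dose zalfermin 0 members passed (0.468% of all genes). Cyp26a1 passed in 5 of the 56 fits, without low-dose zalfermin mouse 2, 4 or 6, low-dose semaglutide mouse 6 or combination mouse 6. Rbp4 passed in 2, without low-dose zalfermin mouse 4 or low-dose semaglutide mouse 6. With low-dose semaglutide 0 members and 0 of all genes (0%) passed, with 1222 genes at an unadjusted p under 0.05. Between high-dose and low-dose zalfermin 0 members passed (1.84% of all genes), and Cyp26a1 passed without low-dose zalfermin mouse 1. Between the combination and low-dose zalfermin Retsat passed (6.62%). Cyp26a1 passed there too without low-dose zalfermin mouse 1, and Rbp4 in 6 of the 56 fits. Between the combination and low-dose semaglutide Rbp4 and Retsat passed (4.21%). Cyp26a1 passed as well in 8 of the 56 fits and Dhrs3 in 2, both among them without low-dose semaglutide mouse 6, and Retsat no longer passed in 2, without low-dose semaglutide mouse 8 or combination mouse 3. Between both high doses 0 members passed (0.447%), and for the low-dose interaction 0 (0.0142%). Whether a member passes also depends on the p-values of all genes in that comparison. Rbp4 did not pass with low-dose zalfermin (0.35 ± 0.10) and passed with high-dose semaglutide (0.34 ± 0.10). As the members were chosen on these levels, their counts carry no evidence of their own.

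Other genes of retinoid handling were taken from a list of 46 chosen by function, of which 38 passed the filter. The list was chosen with earlier results of these data known, so its called shares are a description and no independent evidence. The other 8 (Rbp2, Crabp1, Crabp2, Stra6, Rdh12, Sdr16c5, Cyp26c1 and Stra8) reached 5 reads in fewer than 3 mice. Among these, Rbp2 had 1679 reads in chow mouse 8 and at most 1 in any other mouse.

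Between chow and DIO-MASH vehicle, 16 of the 38 rose and 6 fell in chow mice. These made up 57.9% of the list, against 55.4% of all genes (26.5% higher, 28.9% lower). The median log2 fold change was 0.20, against -0.01 over all genes. The oxidoreductases of retinol and retinal, 15 of the 38 genes, made up 7 of the 16 rises and 1 of the 6 falls. Of these 15, 46.7% rose, against 26.5% of all genes. The share was not particular to this role. Of 6 retinoic acid synthesis genes 3 rose (50%) and 1 fell, and of 5 receptors 2 rose (40%) and 1 fell. Of 4 retinoic acid responsive genes 1 rose (25%) and 2 fell. Rdh16f2, of the retinol dehydrogenase family, had 224 ± 73.6 CPM in chow mice and 25.7 ± 6.47 CPM in vehicle mice (SD, n = 8), a log2 fold change of 3.12 ± 0.28 (edgeR, adjusted p = 2.215e-13). Rdh11, a retinal reductase, rose by 1.71 ± 0.21 (adjusted p = 1.838e-09). Ttr, whose protein transthyretin holds Rbp4 in plasma, rose by 1.18 ± 0.14 (adjusted p = 4.917e-10). All 8 chow mice lay above the vehicle mean for these 3 genes.

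Lrat, the acyltransferase that makes retinyl esters in stellate cells, had 9.73 ± 3.29 CPM in chow mice and 33.8 ± 4.20 CPM in vehicle mice, a log2 fold change of -1.81 ± 0.20 (adjusted p = 8.396e-11). The oxidoreductase Dhrs9 (-1.63 ± 0.42, adjusted p = 0.000798) and the retinoic acid responsive transglutaminase Tgm2 (-1.57 ± 0.16, adjusted p = 1.864e-11) fell too. Of the 22 calls, 21 remained without chow mouse 8. Aldh1a7 was the call lost, with an adjusted p of 0.0493 before and 0.0963 after. Markers of several cell types moved in the same comparison, where 26.5% of all genes rose and 28.9% fell. Of 8 markers of quiescent stellate cells, Lrat among them, 6 fell in chow mice, and their sum was 177 to 372 CPM in chow and 396 to 526 CPM in vehicle mice. Of 6 markers of activated stellate cells 5 fell, with sums of 23.9 to 130 and 407 to 882 CPM. Of 5 cholangiocyte markers 3 fell, with sums of 32.1 to 277 CPM in chow and 191 to 586 CPM in vehicle mice. Of 5 sinusoidal endothelial cell markers 2 fell and 1 rose, and of 5 Kupffer cell markers 1 fell and 2 rose. All 6 hepatocyte markers rose. The part of these cell types in the retinoid results was not tested.

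With the combination, 7 of the 38 rose and 7 fell against DIO-MASH vehicle (median log2 fold change 0.13, against -0.03 over all genes). The called share was 36.8% of the list and 20.9% of all genes. Of the 15 oxidoreductases tested, 5 rose (33.3%, against 10% of all genes) and 0 fell (against 10.9%). Other roles went the other way or did not move. Of 6 retinoic acid synthesis genes 1 rose and 2 fell, and of 4 binding and uptake genes 1 rose and 2 fell. Of 4 retinoic acid responsive genes 0 rose and 2 fell, and of 3 ester storage genes 0 rose and 1 fell. Of 5 receptors 0 passed. Rdh16f2 was at 128 ± 30.7 CPM, a log2 fold change of 2.32 ± 0.27 (edgeR, adjusted p = 1.057e-08). Rdh11 rose by 0.64 ± 0.21 (adjusted p = 0.0224) and Adh1, an alcohol dehydrogenase that oxidises retinol, by 0.53 ± 0.09 (adjusted p = 9.879e-06). Rarres1, a retinoic acid responsive gene, fell from 100 ± 21.01 to 34.8 ± 11.7 CPM, a log2 fold change of -1.53 ± 0.21 (adjusted p = 2.624e-07). Aldh1a7 fell by 0.73 ± 0.13 (adjusted p = 3.988e-05). The Rdh11 call was lost in 2 of 24 fits that left out a mouse, with an adjusted p of up to 0.0610 without combination mouse 5. The reads of Rdh16f2 and its paralogs Rdh1, Rdh7, Rdh9 and Rdh16 could have been split between them.

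With high-dose zalfermin, 7 of the 38 rose and 5 fell (median log2 fold change 0.04, against -0.02 over all genes). The called share was 31.6% of the list and 17.2% of all genes (8.54% higher, 8.68% lower). Of the 15 oxidoreductases tested, 3 rose (20%) and 0 fell. Of 6 retinoic acid synthesis genes 1 rose and 2 fell, and of 4 retinoic acid responsive genes 0 rose and 2 fell. Of 4 binding and uptake genes 1 rose and 1 fell, and of 5 receptors 1 rose and 0 fell. Rdh16f2 was at 119 ± 42.9 CPM, a log2 fold change of 2.21 ± 0.27 (edgeR, adjusted p = 2.562e-08). Aldh8a1, an aldehyde dehydrogenase described with retinal, rose by 0.54 ± 0.10 (adjusted p = 9.718e-05) and Bco2, the second carotenoid oxygenase, by 0.52 ± 0.17 (adjusted p = 0.0227). Rarres1 fell to 40.3 ± 7.27 CPM (-1.32 ± 0.21, adjusted p = 4.94e-06), as did Tgm2 (-0.75 ± 0.16, adjusted p = 0.000531). The Bco2 call was lost in 2 of 24 fits that left out a mouse, with an adjusted p of up to 0.0622 without high-dose zalfermin mouse 6.

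Cell type markers moved in the same comparisons. With the combination, 4 of 6 hepatocyte and 3 of 5 Kupffer cell markers rose, where 10% of all genes did. In the same comparison 4 of 8 quiescent and 5 of 6 activated stellate cell markers fell, against 10.9% of all genes. Of sinusoidal endothelial cell and cholangiocyte markers 1 of 5 each fell. With high-dose zalfermin, 5 of 6 hepatocyte and 1 of 5 Kupffer cell markers rose, where 8.54% of all genes did. Here 2 of 8 quiescent and 4 of 6 activated stellate cell markers fell, against 8.68% of all genes. Of sinusoidal endothelial cell and cholangiocyte markers 0 of 5 each passed. Activated stellate cell markers summed to 69.8 to 306 CPM with the combination and 86.1 to 201 CPM with high-dose zalfermin, below every vehicle mouse. Hepatocyte markers summed to 91682 to 146083 CPM and 90306 to 141665 CPM, against 69245 to 90401 CPM in vehicle mice. Their part in the retinoid results was not tested.

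**Figure D4:**
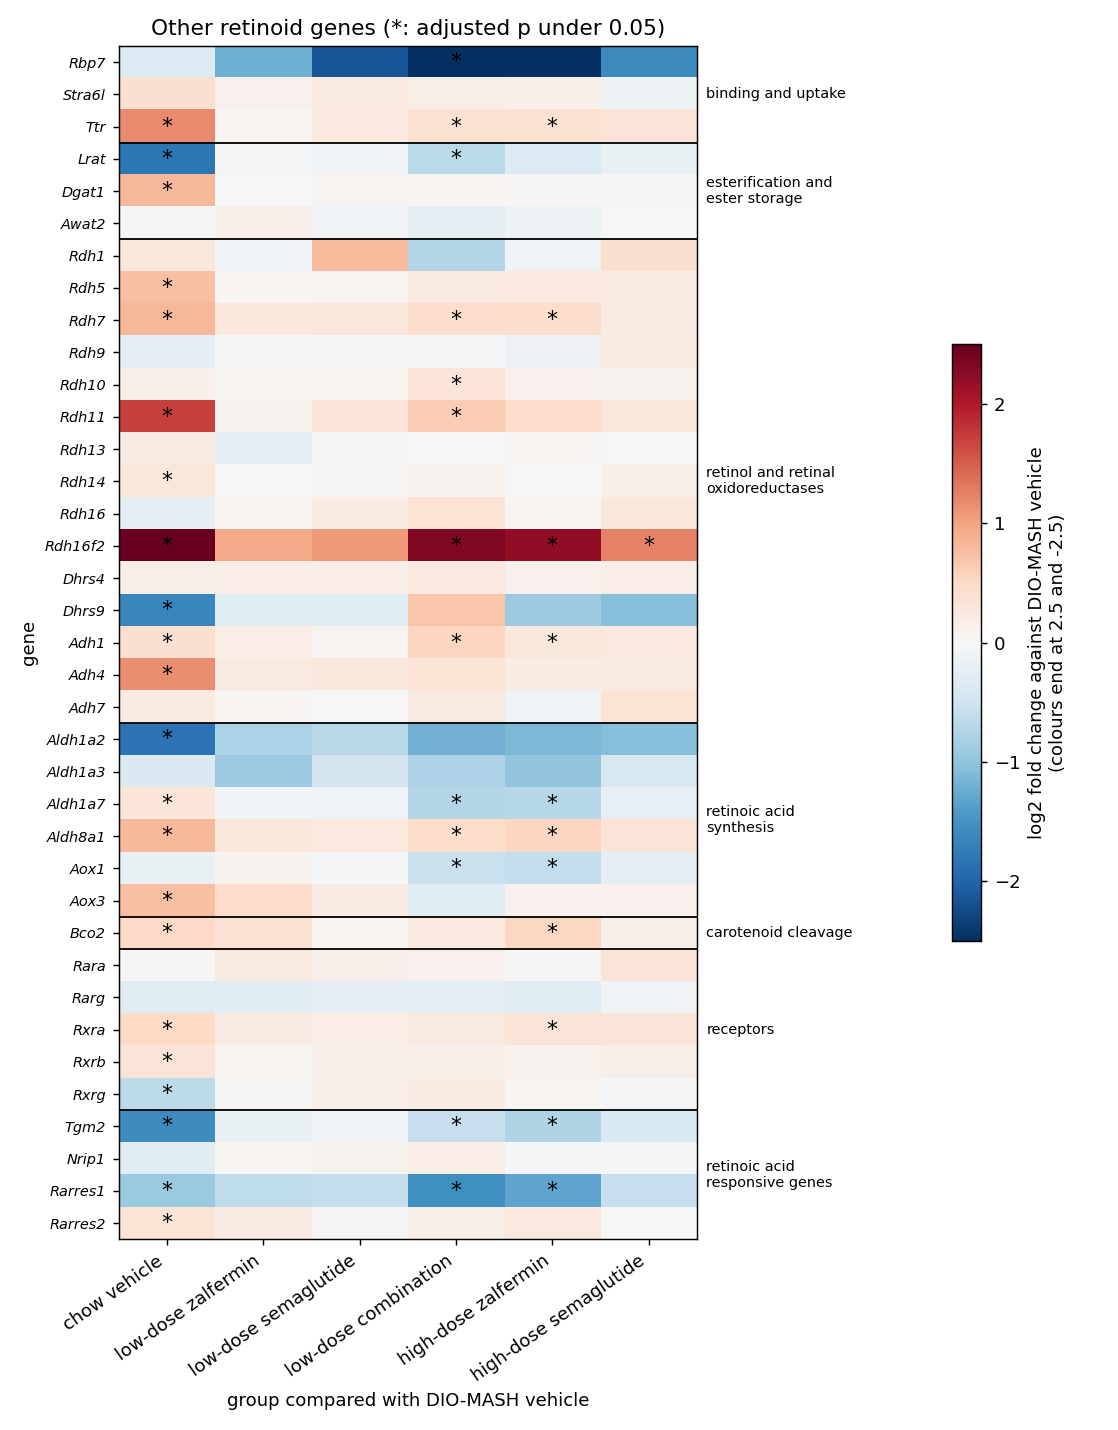
Log2 fold changes of 37 of the 38 tested genes of retinoid handling against DIO-MASH vehicle, grouped by role, in the chow group and the 5 treated groups; colours end at ±2.5 and an asterisk marks an edgeR adjusted p under 0.05. Rdh16f2 carries an asterisk for chow (3.12), the combination (2.32) and the high doses of zalfermin (2.21) and semaglutide (1.24).

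Of the 38 genes, 1 passed with high-dose semaglutide, or 2.63% against 2.43% of all genes. This was Rdh16f2, which rose by 1.24 ± 0.26 (edgeR, adjusted p = 0.00715), with all 8 mice above the vehicle mean. In the same comparison 2 of 6 hepatocyte markers rose, where 202 of 14105 genes did. Of activated stellate cell markers 3 of 6 fell, where 141 of 14105 genes did. Of quiescent stellate cell markers 0 of 8 passed, and of Kupffer cell, sinusoidal endothelial cell and cholangiocyte markers 0 of 5 each. Hepatocyte markers summed to 72951 to 128557 CPM and activated stellate cell markers to 99.7 to 663 CPM, and their part was not tested. With low-dose zalfermin 0 of the 38 passed in edgeR, and 3 passed in DESeq2 after adjustment. An unadjusted edgeR p under 0.05 was found for 8 of the 38 and for 1593 of 14105 genes. With low-dose semaglutide 0 of the 38 passed in either tool. Here 5 of the 38 and 1222 of 14105 genes had an unadjusted edgeR p under 0.05. The DESeq2 counts are given without a share over all genes. Mean Rdh16f2 was 49.7 ± 13.6 CPM with low-dose zalfermin and 53.9 ± 35.5 CPM with low-dose semaglutide.

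The combination differed from both of its components in several list genes. Against low-dose zalfermin 3 rose (Rdh16f2, Adh1 and Rdh10) and 5 fell (Rarres1, Aox3, Aldh1a7, Lrat and Aox1). Against low-dose semaglutide 3 rose (Rdh16f2, Adh1 and Rdh10) and 4 fell (Rarres1, Aldh1a7, Lrat and Aox1). The called shares were 21.1% and 18.4% of the list, against 6.62% and 4.21% of all genes. Both comparisons use the same combination mice. The log2 fold change of Rdh16f2 was 1.37 ± 0.26 (edgeR, adjusted p = 0.000566) and 1.26 ± 0.26 (adjusted p = 0.00187). That of Lrat was -0.64 ± 0.19 (adjusted p = 0.0265) and -0.61 ± 0.19 (adjusted p = 0.0464). The Lrat call against low-dose semaglutide was lost in 13 of 16 fits that left out a mouse, with an adjusted p of up to 0.121 without low-dose semaglutide mouse 7. Rdh10 was lost in 6 of those 16, with up to 0.0880 without combination mouse 6, and Aox1 in 6, with up to 0.0741 without low-dose semaglutide mouse 4. Against low-dose zalfermin, Lrat reached 0.0688 without low-dose zalfermin mouse 4 and Rdh10 0.0669 without combination mouse 6.

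High-dose zalfermin differed from low-dose zalfermin in 4 of the 38 list genes, where 1.84% of all genes passed. Rdh16f2 rose (1.26 ± 0.26, edgeR adjusted p = 0.00444), and Aldh1a7 (-0.63 ± 0.13, adjusted p = 0.00444), the aldehyde oxidase gene Aox1 (-0.70 ± 0.13, adjusted p = 0.00258) and Tgm2 (-0.58 ± 0.16, adjusted p = 0.0383) fell. The Tgm2 call was lost in 12 of 24 fits that left out a mouse, with an adjusted p of up to 0.136 without low-dose zalfermin mouse 4. Between both high doses 0 list genes passed in edgeR, and 3 passed in DESeq2 after adjustment. An unadjusted edgeR p under 0.05 was found for 10 list genes and for 1361 of 14105 genes. For the low-dose interaction 0 list genes passed in edgeR and 1 in DESeq2 after adjustment. There 6 list genes and 952 of 14105 genes had an unadjusted edgeR p under 0.05. These DESeq2 counts too have no share over all genes beside them.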

How the data were processed

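Gene counts were the only unit used. Per the labels and the paper's methods, the authors made stranded mRNA libraries from frozen liver. The methods name STAR and the submitters' processing notes name Trim Galore 0.6.4 and Salmon 1.9.0, both with GRCm38. Which of them gave the deposited counts, and whether strand was used, is not given in the sources used here. The deposited table holds raw whole-number counts of 21935 genes in 56 mice, all used here. The paper left out 1 low-dose semaglutide mouse that the labels do not mark.

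The 14105 genes with at least 5 reads in at least 3 mice were fitted with edgeR 4.0.16 (R 4.3.3): TMM, 1 quasi-likelihood fit of the 7 groups, two-sided F tests, and Benjamini-Hochberg adjustment at 0.05. SEs are the absolute log2 fold change divided by the root of F. Log2 CPM used a prior count of 2. The code was tested on simulated data. Mice of a group, numbered 1 to 8 in label order, differed by more than sampling noise.

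Alternatives were DESeq2 1.42.0, its size factors, other filters (at least 1 read, or 10 reads in 8 mice), number series as covariate, only the groups compared, and mice left out. A replicate block of neighbouring label numbers, leaving out chow mouse 8 by name or both mice highest for Cyp26a1, and the intestinal genes were chosen after seeing the data. Members, lists and markers were chosen with earlier results of these data known. List genes named are up to 3 rises and 3 falls past the threshold per comparison, with a mean of 1 CPM or more, or all where 5 or fewer moved in a direction, and the 5 genes most like Cyp26a1. Of these, Aldh1a7 between chow and vehicle, Top2b and Alpi were named after their values were seen. One gene of the list counts in its totals and is not reported here. Figures used matplotlib 3.10.9.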

Additional observations from a re-analysis of the deposited data

Results flagged for a closer look

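In 4 of 56 sets of 8 mice (8 genes in 7 groups), 1 mouse lay far from the others of its group by Dixon's ratio on log2 CPM, the gap to the nearest mouse over the whole range, past its 95% critical value. Chance gives about 1 in 20. For Cyp26a1 these were low-dose zalfermin mouse 1 (ratio 0.644) and combination mouse 6 (ratio 0.56), both the highest of their groups. For Rbp4 they were DIO-MASH vehicle mouse 7 (ratio 0.563) and low-dose semaglutide mouse 6 (ratio 0.575), again the highest. Low-dose semaglutide mouse 6 also stood apart over all genes. Without DIO-MASH vehicle mouse 7, the log2 fold change of Rbp4 with the combination was 0.69 in place of 0.63, and in chow mice 0.90 in place of 0.84.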

How the results depend on the processing

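The log2 fold changes of the 8 members against DIO-MASH vehicle moved by less than the within-group SD in 336 of 336 refits with other settings and in 95 of 96 lowest and highest values with a mouse left out. The exception was Cyp26a1 with low-dose zalfermin (0.71 without mouse 1), and no called value changed sign. The counts for chow, combination and high-dose zalfermin against vehicle stayed within 1.5 times.

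Smaller counts moved, and the cause was not tested. For low-dose zalfermin, 0 list genes became 3 with DESeq2, 1 with number series as covariate, 2 with only the groups compared, and 0 to 1 with a mouse left out. The 0 members became 2, 1 and 0 to 2 with DESeq2, number series and a mouse left out. For high-dose semaglutide, 1 list gene became 2 with DESeq2 and 1 to 3 with a mouse left out. The 1 member became 0 with every gene with a read and with only the groups compared, and 0 to 1 with a mouse left out. The 7 list genes between the combination and low-dose semaglutide became 4 with only the groups compared and 4 to 9 with a mouse left out. Between both high doses, 0 list genes became 3 with DESeq2, 2 with number series, 1 with only the groups compared and 0 to 3 with a mouse left out. For the interaction, 0 became 1 with DESeq2.

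The labels give groups no shared replicate numbers, but their numbers fall into 13 runs with steps of at most 3, of 1 to 7 mice each. A fit with these runs as a replicate block was added after seeing the data. Mice of different groups in a run had a median correlation of deviations of 0.0506, against -0.0018 between runs, and its mean was over 0.1 in 3 of 11 runs, so the runs were not taken as pairs. With the block, 0 list genes became 1 for low-dose zalfermin and 3 between both high doses, the other list counts stayed within 1.5 times, and over all genes the calls became 194 in place of 343 with high-dose semaglutide, 108 in place of 63 between both high doses and 4 in place of 2 for the interaction. Members that passed with the block in addition were Aldh1a1 between chow and vehicle, Rbp4 between the combination and low-dose zalfermin, and Cyp26a1 between the combination and low-dose semaglutide and between both high doses, and none was lost. Cyp26a1, Cyp26b1, Rarb and Bco1 rest on few reads in the shallowest mice, which limits the precision of their differences.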
